A study of Mus musculus with 2 samples.

Results

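The 9 genes described here encode the core of the mitochondrial death pathway: the guardians Bcl2, Bcl2l1 and Mcl1, the effectors Bax and Bak1, the BH3-only genes Bcl2l11 and Bbc3, and the apoptosome genes Casp9 and Apaf1. They were taken by symbol, from gene identifiers stripped of their version, and all 9 of 9 were found among 43346 gene rows. The libraries came from neural tubes of 2 pups of 1 litter, strain B6NCrl, at postnatal day 0, with 1 tube and 1 library per pup. No allele or treatment is named, sex was not collected, and 10 ng of RNA longer than 200 bases entered each library. Both libraries form 1 group with n = 2, so the study holds no contrast and the values below are descriptions without a test. The gene rows of pup 1 held 26916916 expected counts and those of pup 2 held 40003518.

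The labelled tissue was set against marker genes. All 6 of 6 pan-neuronal genes and all 4 of 4 trunk Hox genes were detected, meaning a TPM (a level per transcript length, scaled to the same total in each library) of at least 1 in both. Of 6 forebrain and midbrain genes 0 were detected, and Otx1, Otx2 and Nkx2-1 had 0 counts in both. Genes of other cell types were present: summed TPM was 3369 and 2577 over 5 erythroid genes, 207.5 and 216.4 over 6 microglial genes, 186.6 and 152.5 over 4 endothelial genes and 53.92 and 92.01 over 6 leukocyte genes. Skeletal muscle genes, 4 of 5 detected, summed to 55.27 and 53.46. The sums were 1378 and 1358 over 4 astrocyte genes and 191.0 and 172.7 over 6 progenitor and cell cycle genes. The pups differed in 6 myelin genes (summed TPM 386.9 and 698.2) and in 6 sensory ganglion genes (160.0 and 234.2). Most of the sensory ganglion sum was Prph (94.76 and 126.37) and Calca (63.51 and 92.53). Avil (0.7 and 8.55), P2rx3 (0.58 and 4.95) and Scn10a (0.19 and 1.35) passed a TPM of 1 in pup 2 only. Trpv1 (0.22 and 0.48) passed it in neither. In whole tissue, fewer cells of a type and less RNA per cell cannot be told apart, and this holds for every level below.

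Cells that die by the mitochondrial route do so when pores open in the outer mitochondrial membrane. Guardian proteins hold the pore-forming effectors in check, and BH3-only proteins, which are made or activated under stress or loss of trophic support, bind the guardians and can engage the effectors. Cytochrome c then leaves the mitochondria and assembles Apaf1 into the apoptosome, which activates caspase-9 and through it the executioner caspases. In the developing nervous system this pathway removes surplus neurons around birth, and mice without Bax keep many motor and sensory neurons that would otherwise die. The transcript levels given here do not measure protein, cleavage of caspases or the number of dying cells.

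The BH3 segment, the stretch that lets the family's proteins bind each other, is shown because it is the feature shared by the guardians, effectors and BH3-only genes. The coding strand was searched in frame for a leucine codon, 3 codons of any kind, a glycine or alanine codon and an aspartate codon. Each of the 7 Bcl2-family members held this pattern at 1 place. The codons are printed 5′ to 3′ from GENCODE M21 transcripts on GRCm38, with the 3 fixed codons in capitals and 2 further codons after them.
Bcl2: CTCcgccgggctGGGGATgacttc
Bcl2l1: CTGagagaggcaGGCGATgagttt
Mcl1: CTGcggcgcgtgGGCGACggcgtg
Bax: CTCcggcgaattGGAGATgaactg
Bak1: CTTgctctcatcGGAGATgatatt
Bcl2l11: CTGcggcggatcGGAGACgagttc
Bbc3: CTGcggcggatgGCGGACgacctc
These stretches lie within coding exons at chr1:106712578-106712601 (minus strand) for Bcl2, chr2:152829700-152829723 (minus) for Bcl2l1, chr3:95659436-95659459 (plus) for Mcl1 and chr7:45466000-45466023 (minus) for Bax. For Bak1, Bcl2l11 and Bbc3 they lie at chr17:27022534-27022557 (minus), chr2:128147150-128147173 (plus) and chr7:16313773-16313796 (plus). In Bbc3 the fifth codon is an alanine codon, and in the other 6 it is a glycine codon. The pattern is loose: 23.7% of 21780 protein-coding genes held it at least once in their longest complete coding sequence. Apaf1, which has no BH3 segment, matched it at 1 place and Casp9 at 0.

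All 9 members were detected, against a background of 35.5% of all gene rows and 63.8% of protein-coding genes. With the minimum TPM raised to 5, 7 passed in both pups, all but Bcl2l11 and Bak1, beside 50.2% of protein-coding genes. Their median TPM was 13.6, beside 5.51 over all protein-coding genes and 17.7 over the detected ones. The levels spanned from Bax, at the 96.0 and 96.2 percentiles of protein-coding genes, to Bak1, at the 46.4 and 46.8 percentiles. By mean TPM the order was Bax, Bcl2l1, Bbc3, Mcl1, Casp9, Bcl2, Apaf1, Bcl2l11 and Bak1. Among neighbours in this order, the ranges over the pups overlapped only for Bbc3 and Mcl1. Bcl2l11 and Bak1 had ranges apart but deposited intervals that overlapped in both pups, so their order is not separated by the precision of a single library. In pup 1 alone the intervals also overlapped for Casp9 and Bcl2 and for Apaf1 and Bcl2l11. In pup 2 alone they also overlapped for Bcl2 and Apaf1. On protein-coding transcripts alone Bbc3 (22.3 and 21.8 TPM) lay below Mcl1 in both pups, and Casp9 (11.5 and 10.8) and Bcl2 (12.5 and 10.4) had overlapping ranges. The plot of levels by gene shows this order.

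**Figure D1:**
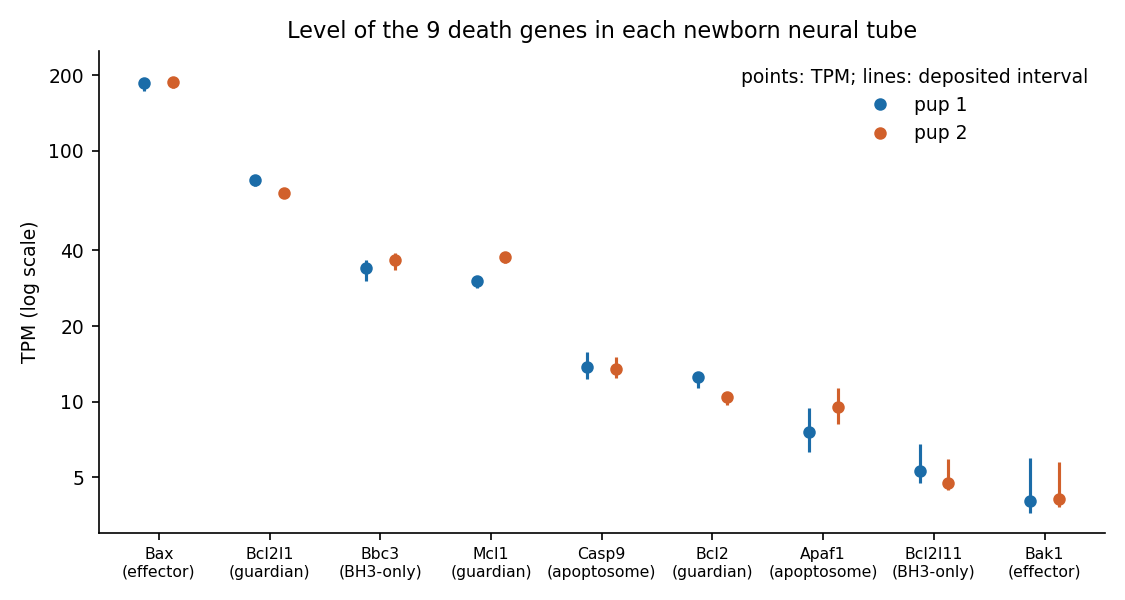
TPM of the 9 genes (log axis) in pup 1 and pup 2, with the interval of TPM that the authors deposited for each library as a vertical line; the role of each gene stands under its name. Bax lies at 186.11 and 187.53 and Bak1 at 4.03 and 4.1, with the guardian Bcl2l1 next below Bax.

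Among the guardians, Bcl2l1 (chr2:152780668-152831728, minus strand) led. It encodes Bcl-xL, the guardian on which young postmitotic neurons are known to depend. Its level was 76.5 TPM in pup 1 and 67.99 in pup 2, a mean of 72.2 ± 6.02 (SD, n = 2), from 2905 and 4083 expected counts. The deposited intervals, 72.0 to 78.8 and 65.0 to 69.7, did not overlap, so the TPM of pup 1 was higher by more than the estimation error. On scaled counts the pups were closer, with a log2 ratio of pup 2 over pup 1 of -0.06.

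Mcl1 (chr3:95658788-95663176, plus strand), a guardian with a short-lived protein needed by neural progenitors, was second. Its level was 30.35 TPM in pup 1 and 37.84 in pup 2 (34.1 ± 5.3), from 1773 and 3280 counts. Here pup 2 was higher, and the intervals of 28.3 to 31.4 and 35.5 to 39.5 were apart.

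Bcl2 (chr1:106538178-106714274, minus strand), the founding member of the family, was lowest of the 3 guardians. Its level was 12.49 TPM in pup 1 and 10.45 in pup 2 (11.5 ± 1.44), from 1197 and 1521 counts. The intervals, 11.3 to 12.9 and 9.66 to 10.8, were also apart, with pup 1 higher.

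The 3 guardians summed to 119 TPM in pup 1 and 116 in pup 2 (118 ± 2.16), so in proportion the sum differed less between the pups than each of its 3 parts. Bcl2l1 held 64.1% and 58.5% of that sum. Mcl1 held 25.4% and 32.5%, and Bcl2 held 10.5% and 8.99%. In both pups the order was Bcl2l1, Mcl1, Bcl2.

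The effectors stood far apart. Bax (chr7:45461697-45466898, minus strand) was at 186.11 and 187.53 TPM (187 ± 1.0), from 2472 and 3837 counts. Bak1 (chr17:27019810-27029009, minus strand), its counterpart that resides at the mitochondrial membrane, was at 4.03 and 4.1 TPM (4.06 ± 0.0495), from 140 and 209 counts. Bax was thus 46.2 and 45.7 times Bak1 and made up 97.9% of the effector sum in each pup. Much of the Bak1 level is a transcript without the full coding sequence. On protein-coding transcripts alone Bak1 was 1.37 and 0.46 TPM, and Bax was 136 and 408 times Bak1. That Bak1 level rested on 53.89 and 27.8 counts, with overlapping intervals (0.659 to 2.14 and 0.14 to 0.869 TPM). The values of 136 and 408 are therefore imprecise. A further pore former, Bok, which the 9 genes do not include, was at 66.3 and 58.36 TPM, above Bak1 and below Bax in both pups. The current annotation places 192 exon bases of another gene model, Gm45808, on the strand of Bax, and that model has no row in the authors' tables.

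Of the BH3-only members, Bbc3 (chr7:16308393-16318205, plus strand), which encodes Puma and is a known target of p53, was the higher. Its level was 34.0 and 36.73 TPM (35.4 ± 1.93), from 788 and 1204 counts. Bcl2l11 (chr2:128126038-128162547, plus strand), which encodes Bim and is known to be induced in neurons deprived of growth factor, was at 5.28 and 4.72 TPM (5.0 ± 0.396), from 330 and 481 counts. Bbc3 held 86.6% and 88.6% of their sum. For both genes the intervals of the pups overlapped.

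The apoptosome genes lay in the middle of the order and below it. Casp9 (chr4:141793612-141815976, plus strand), the initiator caspase, was at 13.7 and 13.48 TPM (13.6 ± 0.156), from 779 and 1135 counts. Apaf1 (chr10:90989311-91082770, minus strand), its scaffold, was at 7.54 and 9.51 TPM (8.53 ± 1.39), from 469 and 653 counts. The ratio of Casp9 to Apaf1 was 1.82 and 1.42, above 1 in both pups, and on protein-coding transcripts alone it was 2.73 and 2.98. Apaf1 intervals of 6.31 to 9.45 and 8.17 to 11.3 overlapped. Its TPM was higher in pup 2 although its scaled count was not: the effective length by which the authors divided the count was 3605 bases in pup 1 and 2585 in pup 2.

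The ratio of effectors to guardians was 1.59 in pup 1 and 1.65 in pup 2 (1.62 ± 0.0387). The ratio of the 2 BH3-only genes to the guardians was 0.329 and 0.356 (0.343 ± 0.0193). The first lay above 1 and the second below 1 in both libraries. A transcript ratio of 1 is no boundary between survival and death, since the proteins differ in translation, stability and location.

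Taken singly, Bax exceeded every guardian. It was 14.9 and 17.9 times Bcl2, 2.43 and 2.76 times Bcl2l1, and 6.13 and 4.96 times Mcl1. Bax relative to Bcl2 and Bcl2l1 was higher in pup 2, and Bax relative to Mcl1 was higher in pup 1. Since Bax itself was nearly equal in the pups, these shifts follow the guardians' own values.

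Bak1 was below every guardian, at 0.323 and 0.392 of Bcl2, 0.0527 and 0.0603 of Bcl2l1, and 0.133 and 0.108 of Mcl1. Bcl2l11 was likewise below each: 0.423 and 0.452 of Bcl2, 0.0690 and 0.0694 of Bcl2l1, and 0.174 and 0.125 of Mcl1. Bbc3 was 2.72 and 3.51 times Bcl2 but 0.444 and 0.540 of Bcl2l1. Against Mcl1 it was 1.12 in pup 1 and 0.971 in pup 2, the only ratio of the 17 given that fell on different sides of 1. This crossing was not seen on protein-coding transcripts alone, an alternative chosen after seeing the data for these single ratios: Bbc3 to Mcl1 was then 0.736 and 0.575. Bbc3 to Bcl2 was 1.79 and 2.08 on that basis, and Bbc3 to Bcl2l1 was 0.292 and 0.320. Bak1 was 0.110 and 0.0440 of Bcl2, 0.0179 and 0.00677 of Bcl2l1, and 0.0451 and 0.0122 of Mcl1. These Bak1 values rest on 53.89 and 27.8 counts of its coding transcript. The Bax ratios to the guardians were the same, and those of Bcl2l11 moved by less than 1.5 times.

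**Figure D2:**
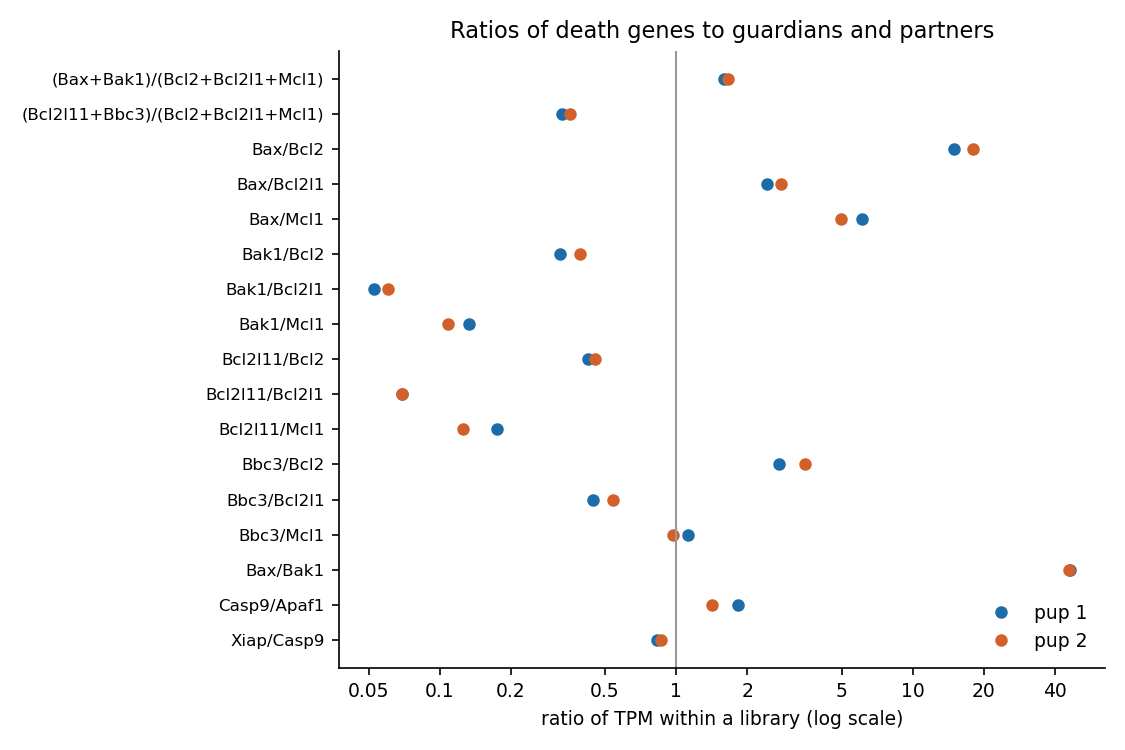
Ratios of TPM within each library (log axis), 1 point per pup, with a line at 1. The summed effectors lie above the guardians (1.59 and 1.65), the summed BH3-only genes below them (0.329 and 0.356), and Bbc3/Mcl1 lies on both sides of the line.

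The sums depend on which genes enter them. With the other guardians, effectors and BH3-only genes of the fuller lists added, the effector ratio was 2.02 and the BH3-only ratio 1.26. The largest additions were Bok (66.3 and 58.36 TPM), Bad (77.94 and 79.8) and Bid (32.85 and 29.24). In both pups Bad lay above Bbc3, the leading BH3-only member, Bid lay below Bbc3, and Bok lay below Bax. The intervals of Bid and Bbc3 overlapped in pup 1 (30.4 to 34.4 and 30.1 to 36.5 TPM). In pup 2 they were apart (27.5 to 30.4 and 33.5 to 39.0). On protein-coding transcripts alone Bbc3 was 22.3 and 21.8 TPM, and no such level is given for Bid. Bad and Bid encode BH3-only proteins known to be controlled after translation, by phosphorylation and by cleavage. The BH3-only ratio therefore changed side of 1 with the choice of genes, and the effector ratio did not.

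The authors' transcript tables give each transcript's percent of its gene's TPM. Bcl2l1 had 9 annotated transcripts, and Bcl2l1-201 led with 74.65% in pup 1 and 68.53% in pup 2 (71.6 ± 4.33). Bcl2l1-202, which has another first exon and the same 233 codons, followed with 13.97% and 22.84%. Together these transcripts, which encode Bcl-xL, held 88.6% and 91.4% (90.0 ± 1.94), or 67.8 and 62.1 TPM.

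The other Bcl2l1 transcripts were minor. Bcl2l1-205 and Bcl2l1-206, which run on past the end of exon 2 and encode the 209-codon beta form, held 1.76% and 1.75%. Bcl2l1-203, Bcl2l1-204, Bcl2l1-207 and Bcl2l1-208, whose coding sequence is annotated as incomplete, held 9.61% and 6.88%, most of it in Bcl2l1-203 (5.47% and 4.6%) and Bcl2l1-208 (2.85% and 1.39%). The processed transcript Bcl2l1-209 was at 0 in both pups. Bcl-xS, the death-promoting short form, arises when a shortened exon 2 is joined to the last exon. Of the annotated transcripts 2 join the full exon 2 to the last exon and 0 join a shortened one, so reads of Bcl-xS have no transcript of their own here and no share can be given for it.

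The alpha and beta ends are shown because they are where the forms of Bcl2l1 and Bcl2 part. The last shared base is chr2:152829427 in Bcl2l1 and chr1:106712305 in Bcl2 (GRCm38, minus strand). Lower case marks the last 30 shared coding bases, and capitals mark the coding bases that follow in each form, up to the beta form's stop codon.
Bcl2l1-201: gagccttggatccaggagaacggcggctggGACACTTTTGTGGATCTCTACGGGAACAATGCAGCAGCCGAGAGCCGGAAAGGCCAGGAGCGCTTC
Bcl2l1-205: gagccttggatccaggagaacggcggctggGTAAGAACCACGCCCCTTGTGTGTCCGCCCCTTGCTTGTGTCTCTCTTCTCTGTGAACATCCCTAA
Bcl2-201: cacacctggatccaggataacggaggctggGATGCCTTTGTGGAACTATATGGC
Bcl2-202: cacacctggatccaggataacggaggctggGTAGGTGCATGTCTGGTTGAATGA
In both genes the beta form reads through the splice donor, so its capitals begin with GT, and it lacks the membrane anchor at the end of the alpha form. Bcl2l1-205 and Bcl2l1-201 share 564 coding bases, and Bcl2-202 and Bcl2-201 share 576.

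The shares of these forms differed between the genes. Bcl2 alpha (Bcl2-201, 236 codons) held 64.6% and 63.0% and Bcl2 beta (Bcl2-202, 199 codons) 35.4% and 37.0%, so beta was 4.42 and 3.87 TPM. Beta was thus a larger part of Bcl2 than of Bcl2l1 in both pups. The sequence in which Bcl2-202 differs from Bcl2-201 is 1966 bases of the intron after exon 1, and the first intron is also present in unspliced Bcl2 RNA, which total RNA libraries contain. The part of unspliced RNA in the beta share was not tested.

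The first exons of Bcl2l1 also differed in use. Transcripts that start at the distal exon (chr2:152831603-152831728, minus strand; Bcl2l1-201 and Bcl2l1-208) held 77.5% in pup 1 and 69.9% in pup 2. The other 7 transcripts held 22.5% and 30.1%, and the start of Bcl2l1-202 lies 1062 bases from the distal one. The interval of Bcl2l1-201 was 50.0 to 58.7 TPM in pup 1 and 41.0 to 49.5 in pup 2, which do not overlap. For Bcl2l1-202 the intervals, 7.26 to 14.7 and 11.6 to 19.3, did overlap. The lower Bcl2l1 TPM of pup 2 was therefore found in the transcript with the distal first exon. The gene's scaled counts differed little between the pups, with a log2 ratio of -0.06.

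Among the members, by the percents from TPM, Bak1 alone was led in both pups by a transcript without the full coding sequence. In the authors' posterior mean estimate the non-coding Apaf1-204 also led its gene in both pups, with 38.19% and 59.31%. The leading transcript of Bak1, Bak1-201, is annotated as a target of nonsense-mediated decay, the process that degrades messages with a premature stop codon. Bak1-201 held 66.1% and 88.85% of Bak1, from 86.11 and 181.55 counts. The coding transcript Bak1-202 held 33.9% and 11.15%, from 53.89 and 27.8 counts, which leaves 1.37 and 0.46 TPM of annotated full-length Bak1 (0.915 ± 0.643). Over 9829 detected protein-coding genes with several transcripts, the leading transcript was annotated for this decay in both libraries in 1.82%, and was of any non-coding class in both in 8.34%.

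The difference between these transcripts within the coding sequence is a 20-base exon, the fifth of 7 in Bak1-201, at chr17:27021663-27021682 (GRCm38, minus strand). It is shown with its surroundings because it sets the reading frame: capitals mark the exon and the stop codon that comes into frame behind it.
Bak1-201: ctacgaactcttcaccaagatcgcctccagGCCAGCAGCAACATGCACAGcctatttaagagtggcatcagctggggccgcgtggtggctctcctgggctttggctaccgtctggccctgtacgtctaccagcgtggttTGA
Bak1-202: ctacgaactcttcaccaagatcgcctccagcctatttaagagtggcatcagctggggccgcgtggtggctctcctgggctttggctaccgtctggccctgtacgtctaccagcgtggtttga
With the exon the coding sequence has 151 codons and its stop codon lies 89 bases before the last exon junction. Without it there are 209 codons, and the letters tga at the end of the second line are out of frame. As background, inclusion of a short Bak1 exon of this kind is known in maturing neurons, where it lowers Bak1 protein. The share of 20 bases or fewer among annotated internal exons is 0.392%.

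Several limits bear on the Bak1 shares. The 20 bases are the only sequence of Bak1-201 that Bak1-202 lacks, while 433 bases of Bak1-202 are absent from Bak1-201, nearly all in its longer first exon (599 against 168 bases). Of those 433 bases, 266 lie in exons of Ggnbp1, a gene on the opposite strand with 3.17 and 4.37 TPM. The strand setting of the authors' counting is not given in the sources used here, so reads of the pair may not have been told apart. The intervals overlapped between the pups for Bak1-201 (1.53 to 3.49 and 2.81 to 4.13 TPM) and for Bak1-202 (0.659 to 2.14 and 0.14 to 0.869 TPM). The share of Bak1-201 was 53.77% and 73.81% in the authors' posterior mean estimate, which spreads some reads over 2 further transcripts.

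The remaining members were divided as follows. Bax had 1 transcript, and Mcl1-201 held 100% and 95.3% of Mcl1. The only other Mcl1 transcript, Mcl1-202, was at 0 and 4.7%. In Bcl2l11, BimEL (Bcl2l11-205, 196 codons) led with 64.2% and 65.5%. BimL was at 0 and 7.84%, and BimS at 5.24% and 0, each resting on at most 33.79 counts. Bcl2l11-202, with 91 codons, held 5.44% and 4.22%. Processed transcripts Bcl2l11-206, Bcl2l11-207 and Bcl2l11-208 held 25.1% and 22.4% together. The 0 values of BimL and BimS depended on the estimate. In the authors' posterior mean estimate BimL held 3.03% and 6.59%. The BimS transcripts Bcl2l11-201 (4.81% and 5.45%) and Bcl2l11-204 (4.38% and 3.71%) were then above 0 in both pups. BimEL still led in that estimate, with 55.46% and 56.25%.

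In Bbc3, the coding transcript Bbc3-201 held 61.83% and 51.66%, and Bbc3-203, annotated as a retained intron, held 34.33% and 40.7%. As for Bcl2 beta, the part of unspliced RNA in the Bbc3-203 share was not tested. The third transcript, Bbc3-202, has an incomplete coding sequence and held 3.84% and 7.64%. Bbc3 from protein-coding transcripts alone was 22.3 and 21.8 TPM, nearly equal in the pups. Casp9-201 held 82.15% and 78.5% of Casp9, and the processed transcript Casp9-203 held 12.51% and 17.34%.

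By the percents from TPM, Apaf1 was the only member whose leading transcript differed between the pups. The leading transcript was the same in 90.4% of the 9829 genes, so a single member that differs is near the background. In pup 1 the leading Apaf1 transcript was the coding Apaf1-201, with 44.15% against 19.55% in pup 2. In pup 2 it was Apaf1-204, a processed transcript of 511 bases, with 60.99% against 39.63% in pup 1. Apaf1-204 rested on 21.24 and 63.48 counts, and its short length turns few reads into a high TPM. The change of leader depended on the estimate. In the authors' posterior mean estimate Apaf1-204 led in both pups, with 38.19% and 59.31% against 33.06% and 17.89% for Apaf1-201. The second coding transcript, Apaf1-202, has the same 1249 codons and held 6.73% and 15.48%. Protein-coding Apaf1 was 4.21 and 3.63 TPM, so the higher gene total of pup 2 was not seen in its coding transcripts.

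**Figure D3:**
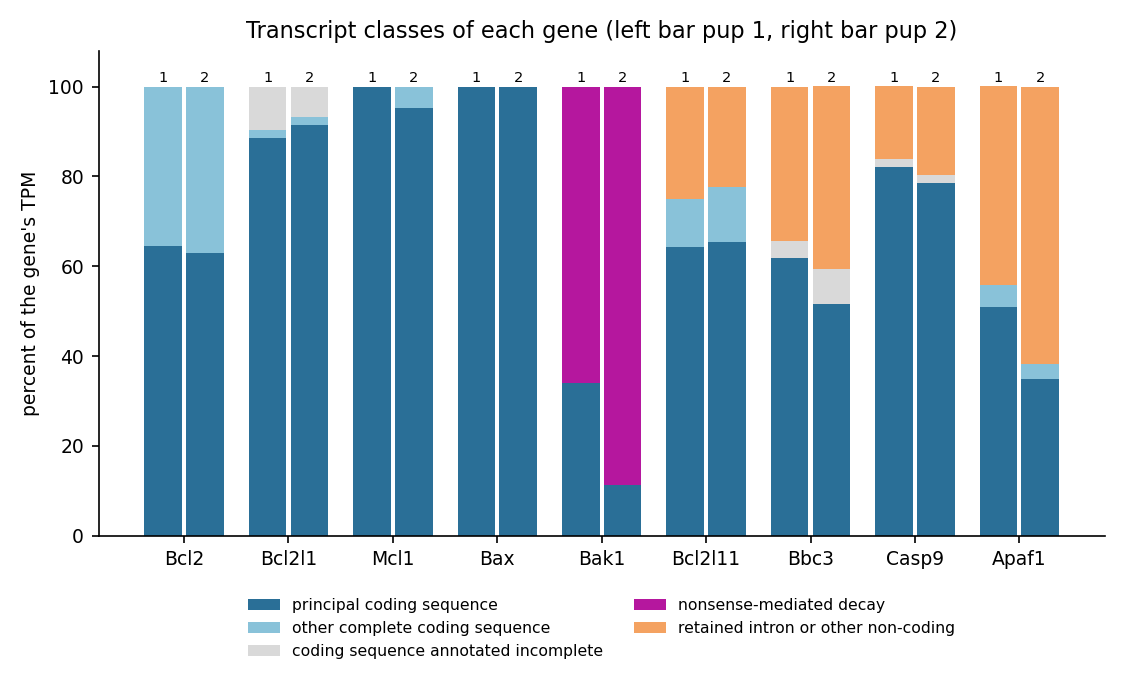
Percent of each gene's TPM by transcript class, from the authors' transcript tables, with pup 1 as the left and pup 2 as the right bar of each gene. Bak1 is the gene filled mostly by nonsense-mediated decay (66.1% and 88.8%), and Apaf1 and Bbc3 hold the largest non-coding parts.

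The pups were compared on counts, as the log2 ratio of pup 2 over pup 1 after TMM scaling with edgeR. None of the 9 members differed 2-fold, and neither did any by 1.5-fold. Of the 13545 genes whose mean count reached 100, all 9 members among them, 0.472% differed at least 2-fold and 2.01% at least 1.5-fold, so 0 of 9 is also what the background would give. With 1 library on each side there is no replicate check and no p-value. The members' median absolute log2 ratio was 0.063, beside 0.111 over all these genes.

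Mcl1 had the highest ratio, 0.33, and 91.8% of genes had a smaller absolute one. Among the 2125 genes in the same class of mean count, the 5th and 95th percentiles were -0.22 and 0.24, so Mcl1 lay outside them. Bcl2 followed with -0.21 (77.3% smaller), inside the band from -0.23 to 0.25 of its own class. The others ran from -0.08 in Apaf1 and -0.06 in Bcl2l1 to 0.08 in Bax, with 0.06 in Bbc3, 0.02 in Bak1 and -0.01 in both Bcl2l11 and Casp9.

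The authors' intervals were apart between pups for 3 of 9 members, Bcl2l1, Mcl1 and Bcl2. This is the case for 21.0% of all 15386 detected genes. All 3 are among the 4 members whose mean count reached 1000, and over the 7081 genes with such counts the intervals were apart in 33.6%. Pup 2 also had the higher myelin, sensory ganglion and leukocyte sums given above and the lower erythroid and endothelial sums. The trunk Hox genes differed in both directions, with Hoxc8 at 22.83 and 52.01 TPM, Hoxa7 at 84.67 and 125.98, Hoxd10 at 104.99 and 63.16 and Hoxb6 at 94.3 and 84.2. The part of these differences in those of Mcl1, Bcl2 and Bcl2l1 was not tested.

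**Figure D4:**
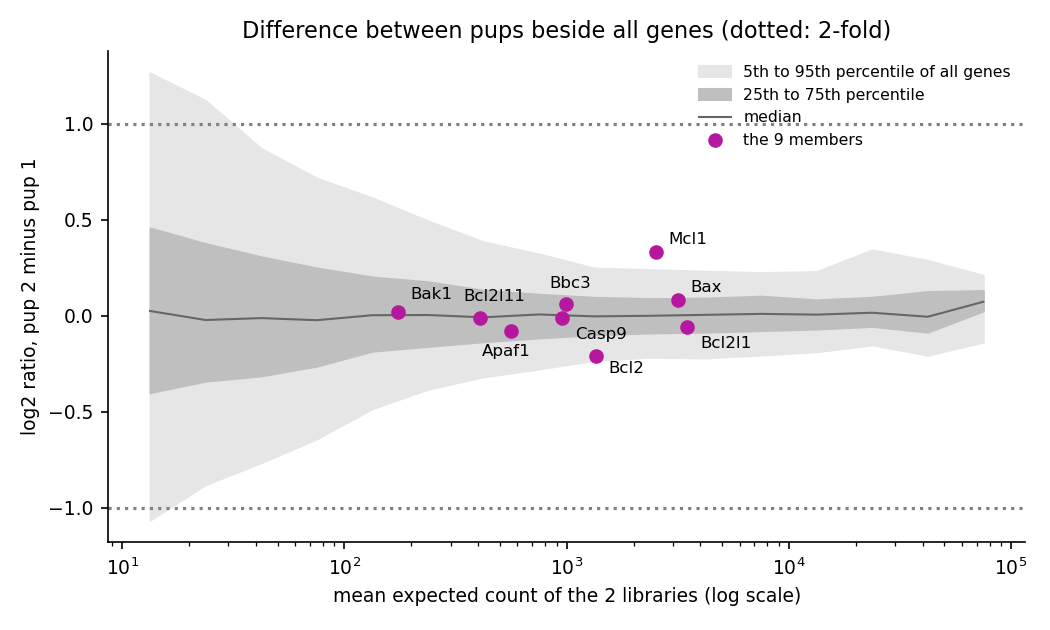
Log2 ratio of pup 2 over pup 1 against mean expected count (log axis) for the 9 genes, over bands that hold the middle of all genes in classes of count. Mcl1, at 0.33, lies above the 5th to 95th percentile band, and the other 8 lie inside it.

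The rest of the pathway was taken from 13 lists with 62 further genes. Of these, 52 were detected, against 35.5% of all gene rows and 63.8% of protein-coding genes, and their median TPM was 16.4. Among the 46 whose mean count reached 100, 0 differed 2-fold between the pups. Over all 13545 genes with such counts the share was 0.472%, so 0 of 46 is also what the background would give.

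Of 5 other guardians 2 were detected, both low. Bcl2l2, which encodes Bcl-w, was at 4.5 and 3.41 TPM. Another gene model, Gm20521, overlaps Bcl2l2 on the same strand, and whether it took reads of Bcl2l2 was not tested. Bcl2a1b was at 2.49 and 3.46 TPM, while its near-identical copies Bcl2a1a (0.41 and 0.11) and Bcl2a1d (0 and 0.34) were under 1, and how reads were divided among these copies is uncertain. Bcl2l10 had 0 counts in both pups, which allows up to 3 counts, or 0.111 and 0.0750 CPM. Next to 118 TPM for the 3 members, the 5 others summed to 7.4 and 7.32.

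Of 6 other BH3-only genes 3 were detected: Bad and Bid, given above, and Hrk, which encodes a neuronal BH3-only protein, at 4.36 and 4.86 TPM. Bmf (1.1 and 0.82) and Pmaip1, which encodes Noxa (1.23 and 0.68), passed a TPM of 1 in pup 1 only, and Bik (0.62 and 0.22) in neither. Downstream, Cycs, encoding cytochrome c, was at 79.0 and 91.14 TPM, although it has processed pseudogenes that may share its reads.

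Casp6, an executioner caspase, was at 16.78 and 14.05 TPM. Of 6 caspases outside the apoptosome and the executioners, 5 were detected, from Casp2 (11.46 and 10.55 TPM) downward, and Casp14, a caspase of skin, had 0 counts.

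All 6 caspase inhibitors were detected. Birc6, a large ubiquitin ligase, was highest at 75.21 and 71.08 TPM, and Birc3 lowest at 1.44 and 1.72. Xiap, which blocks caspase-9 directly, was at 11.35 and 11.58 TPM, or 0.828 and 0.859 of Casp9. Among 4 genes for proteins released from mitochondria, all detected, Diablo, which relieves the block by Xiap, was highest at 72.15 and 79.61 TPM and Aifm1 lowest at 26.38 and 24.88.

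The 7 channel and partner genes were all detected and had the highest median, 258 TPM. Vdac3, an outer-membrane channel, led with 454.85 and 466.41 TPM, and Becn1, an autophagy protein that binds Bcl2, was lowest with 114.82 and 105.63. Of 7 death receptor and adaptor genes 6 were detected, led by Ngfr, the p75 neurotrophin receptor, at 22.45 and 22.41 TPM, with Tnfrsf10b at 0.34 and 0.6.

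Upstream, 5 of 7 transcription factors were detected. Jun, known to be activated in neurons deprived of trophic support, was highest at 55.61 and 55.15 TPM. Trp63 (0.04 and 0.1) and Trp73 (0.11 and 0.15) were under 1. All 6 p53 targets outside the family were detected, from Cdkn1a, a cell cycle inhibitor, at 205.22 and 195.71 TPM down to Perp at 13.9 and 14.35. The 3 genes of the last list, Dffa, Dffb and Parp1, were detected too. Parp1 was highest (45.45 and 42.11) and Dffb, the caspase-activated nuclease, lowest (8.02 and 7.3).

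**Figure D5:**
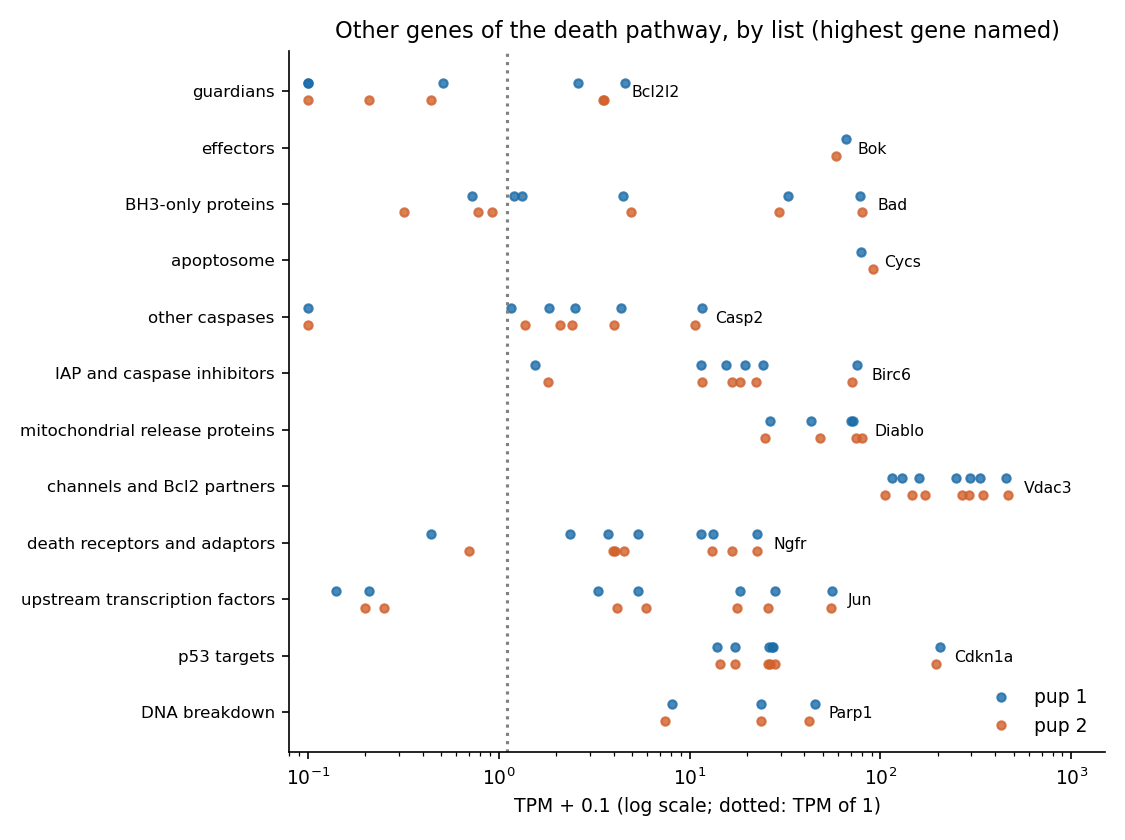
TPM + 0.1 (log axis) of 59 other pathway genes in 12 lists, 1 point per gene and pup, with the highest gene of each list named and a dotted line at a TPM of 1. Channels and partners lie highest, led by Vdac3, and most other guardians lie near or under the line.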

How the data were processed

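Total RNA-seq of 2 neural tubes was used, 1 group with n = 2. Per the file headers, the deposited gene and transcript tables hold expected counts (estimated reads per gene, before any scaling), TPM, posterior mean values, interval bounds of TPM and the percent of each gene's TPM per transcript, in column names that RSEM writes. The deposited percent values come from TPM, and the deposited TPM values are per length and scaled to a fixed total. Per the deposited notes, the build is mm10 with GENCODE M4. Not given in the sources used here are the aligner, the RSEM version, the strand setting and the level of the intervals. The intervals surround the posterior mean, so a TPM can lie near or outside a bound.

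Symbols, transcript classes, coordinates and sequences came from GENCODE M21 on GRCm38 and were matched on identifiers without version (42462 of 43346 gene rows). Protein sequences were not used here. Spike-in, tRNA and phiX rows, 0.00131% and 0.00152% of counts, were left out. Counts were rounded. TMM factors came from edgeR 4.0.16 in R 4.3.3 over the genes whose mean count reached 10, and log2 ratios used a prior count of 2. Size factors from DESeq2 1.42.0, computed as an alternative, equalled the TMM scaling to the 4 digits kept. In simulated libraries for pup 2 against pup 1, 51.0% of 100 genes changed 2-fold and 100% of 100 genes changed 4-fold were past 2-fold, and 0% of 13344 unchanged genes. The simulated counts had a common spread for all genes, estimated from these same pups, and a true 2-fold change lies on the threshold itself. These shares follow from those settings, so they check the computation and not the 2-fold threshold. Tables and plots used Python 3.11.15, pandas 2.3.3 and matplotlib 3.10.9.

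All 9 members are named. Of each pathway list the highest and lowest genes are named, with any under a TPM of 1 in either pup; of transcripts, all of Bcl2l1 and those of at least 5% in either pup. Bad and Bid were added to the named genes once their values had been seen. The members and lists were chosen with earlier results of these data known. A few pathway genes are not reported here.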

Additional observations from a re-analysis of the deposited data

How the results depend on the processing

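The effector to guardian ratio (1.62) was 0.450 from expected counts not divided by length, 2.02 with the other family members and, as an alternative chosen after seeing the data, 1.78 from principal coding sequences only. The BH3-only to guardian ratio (0.343) was 0.190, 1.26 and 0.220 under the same settings and 0.219 from protein-coding transcripts. The count-based values follow from the genes' unequal lengths. Posterior mean TPM gave 1.61 and 0.346, and single pups gave 1.59 to 1.65 and 0.329 to 0.356. No member passed 2-fold under any scaling, prior count, count estimate or filter tried, nor at 1.5-fold, and 7 of 9 had a TPM of at least 5 in both pups. Of the 62 other pathway genes, 40 to 54 were detected over the thresholds and estimates tried.

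Scaling to spike-in totals, also chosen after seeing the data and resting on 335 and 603 spike-in counts, moved the median gene by -0.29 on the log2 scale. It turned the log2 ratios of Bax (-0.21), Bak1 (-0.27) and Bbc3 (-0.24) negative and left Mcl1 at 0.04. A change of scaling moves all genes by nearly the same amount, so it could not change the order of the members relative to the median gene. Restricting to protein-coding transcripts moved 5 of 9 members' TPM by more than the spread of the pups, Bak1 the most (0.915 in place of 4.06). No paired analysis was possible because the labels give 1 group. Depth limits Bak1 most, with 140 and 209 counts. Intervals cover estimation error only.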
